A study of Mus musculus with 33 samples.

Results

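The genes described here are 35 genes of Myc and ribosome biogenesis, 35 of the 55376 gene symbols in the count tables. They were chosen by gene name from what the products do, by a rule that reads no value, although earlier results of these data were known when the list was made. They are the Myc genes Myc and Mycn, the tRNA methyltransferase Mettl1 with its partner Wdr4, 6 genes of RNA polymerase I transcription, 9 genes of the small nucleolar RNA-protein particles (snoRNPs), 11 genes of ribosomal subunit processing and 5 genes of abundant nucleolar proteins. They were measured by total RNA sequencing in 3 sorted cell types, hematopoietic stem cells (HSCs), lymphoid progenitors of the CLP gate (common lymphoid progenitors) and granulocyte-monocyte progenitors (GMPs), from the marrow of old wild-type C57BL/6 male mice, aged 24 to 29 months per the study's methods. Untreated mice (O-WT) were compared with mice given nicotinamide riboside, an NAD+ precursor, at 12 mM in the drinking water for 4 to 6 weeks (O-NR), and with mice analysed 2 months after it was withdrawn (O-NR-RC). In cohort 2 each cell type had 4 untreated and 4 NR-treated libraries, 24 in all. Cohort 1 was HSCs alone, 9 libraries, 2 untreated, 4 treated and 3 after withdrawal. Every mouse was old, so nothing here compares ages. The labels do not say that each library came from a separate mouse, so the p-values measure the spread between these libraries only. The label fields for the source and for the cell type both call the myeloid cells common myeloid progenitors, and their titles call them GMPs, the name used here.

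Ribosomes are built in the nucleolus, where RNA polymerase I transcribes the ribosomal RNA precursor, snoRNPs guide its methylation and pseudouridylation, and processing factors cut and fold it into the small and large subunits. Myc proteins are transcription factors that bind the E-box motif CACGTG together with Max and are known to raise the transcription of many of these genes. In blood formation Myc and Mycn are both used by stem cells, and protein synthesis is known to be kept low in HSCs.

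Libraries held 4792380 to 23816042 counts, and the 35 genes took 0.327% to 0.473% of them in the HSC libraries of cohort 2, 0.351% to 0.527% in CLPs and 0.579% to 0.760% in GMPs. The GMP libraries thus lay above all others with no overlap, before any scaling. Outside Mycn, each gene rested on at least 81 reads in every library. Markers of the sorted cell types fitted the sorts: in O-WT mice of cohort 2 the summed HSC markers reached 1330 to 2401 CPM (counts relative to the scaled library size) in HSCs and no more than 149 CPM in CLPs or GMPs, the summed CLP markers reached 1940 to 4261 CPM in CLPs and 119 to 189 CPM in HSCs, and the summed GMP markers reached 18653 to 23656 CPM in GMPs and no more than 460 CPM elsewhere. Markers of other cells were also present. In the same mice, B and plasma cell markers summed to 41.0 to 470 CPM in HSCs, 353 to 770 in CLPs and 58.8 to 83.4 in GMPs. Neutrophil markers summed to 11.6 to 12.8 CPM in HSCs, 41.2 to 183 in CLPs and 21.7 to 51.5 in GMPs. The part of such cells in the values of the 35 genes was not tested. Olfactory and vomeronasal receptor genes, which blood cells have little known use for, summed to 1088 to 4960 CPM in cohort 2 and to 6622 to 11687 CPM in cohort 1. In O-WT libraries of cohort 2 the sum was 1088 to 2509 CPM in GMPs, 1782 to 3365 in HSCs and 2737 to 4960 in CLPs. The HSC O-WT library of replicate 2 had the highest sum (3365 CPM) and the lowest mean log2 CPM of the 35 genes (5.47) among HSCs of cohort 2. The part of this background in the differences between cell types was not tested. The CLP O-WT library of replicate 3 stood apart, with the fewest counts, the highest receptor sum of cohort 2 and the lowest mean log2 CPM of the 35 genes, 5.26. Counts of the 35 genes that rest on it, and the NR values named for CLPs, are given with and without it.

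In untreated mice, 31 of the 35 genes were higher in GMPs than in HSCs, 1 was lower (Mycn) and 3 did not pass the test (Wdr4, Polr1e and Ubtf), by edgeR's quasi-likelihood test with a Benjamini-Hochberg adjusted p below 0.05 over all 22573 genes tested. Among all genes tested 18.6% were higher and 20% lower by the same rule. In 30 of the 35 genes every GMP library lay above every HSC library, as in 17.9% of all genes, and the median log2 fold change was 1.15 over the 35 genes and -0.32 over all genes. In NR-treated mice 28 of the 35 were higher in GMPs, all of them among the 31, and Mycn was again lower, with 15.7% of all genes higher and 18% lower. Mettl1, Nop14 and Rrn3 thus passed in untreated mice alone. Their difference between treatments equals the difference of the NR effect between HSCs and GMPs, tested below, where none of the 35 genes passed p below 0.01. Against CLPs, GMPs were higher for 33 genes in untreated mice and for 31 in NR-treated mice, where 24.1% and 17.2% of all genes were higher, and Mycn was the 1 gene lower in each, where 32.1% and 19.9% of all genes were lower. Scaling by total counts alone moved the median of all genes from -0.32 to -0.71 and that of the 35 genes from 1.15 to 0.83 (GMP minus HSC, untreated), and Mycn remained the 1 gene lower. Without the HSC O-WT library of replicate 2, which had the lowest mean of the 35 genes among the HSCs of cohort 2 (5.47), 28 genes were higher than in untreated HSCs, and without the CLP O-WT library of replicate 3 the count was 32, with 33 higher than in untreated CLPs as before. In bulk libraries, a smaller share of cells of one kind and less RNA per cell cannot be told apart.

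**Figure D1:**
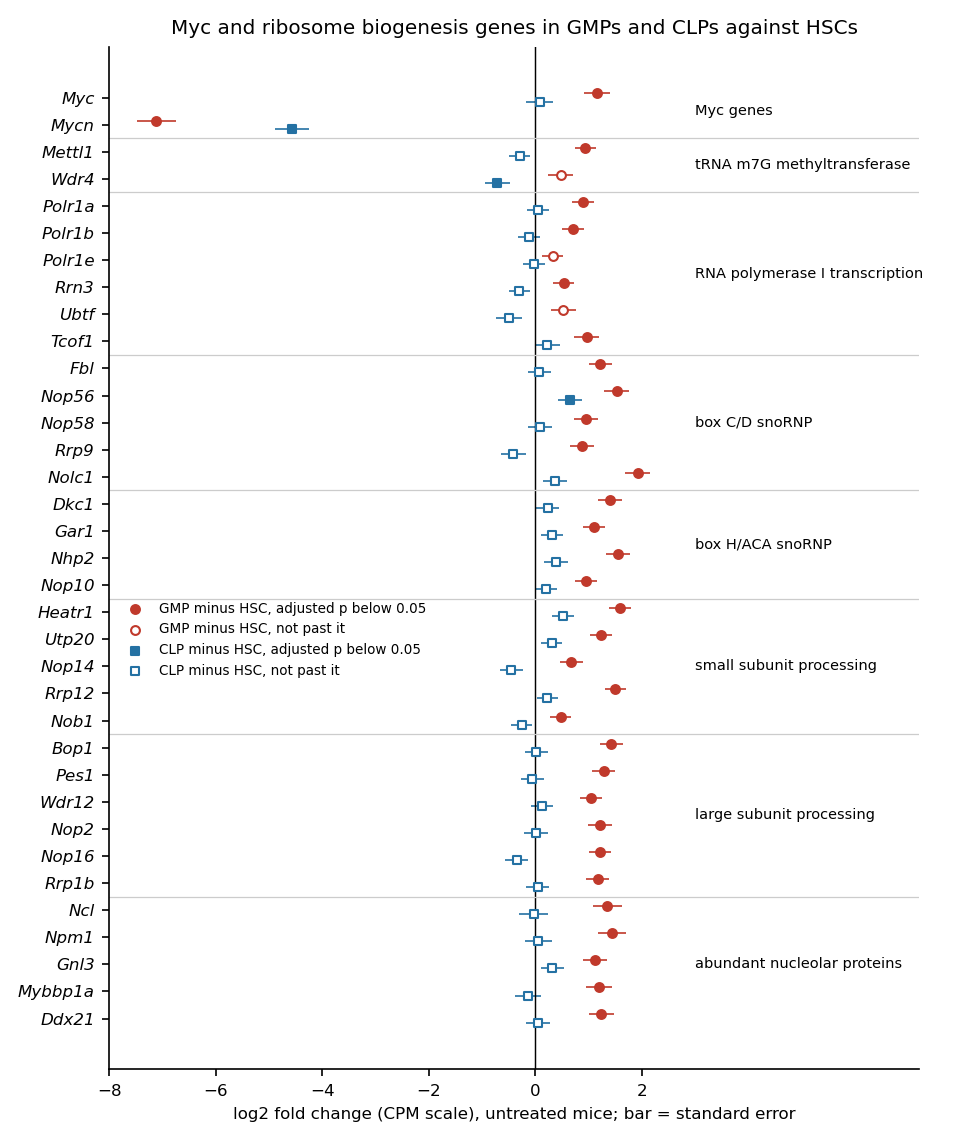
Log2 fold changes of the 35 genes between untreated cell types of cohort 2 (GMP minus HSC and CLP minus HSC, 4 libraries each), grouped by role, with bars of 1 standard error and filled points where the adjusted p was below 0.05. In GMP minus HSC 31 points are filled to the right of 0 and only Mycn to the left, at -7.11; in CLP minus HSC all but 3 points are open and most lie near 0.

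The Myc genes went in opposite directions. Mycn (chr12:12936093-12941914, minus strand, GRCm38) was at 432, 202, 316 and 568 CPM in the 4 O-WT HSC libraries, at 18.9, 12.9, 11.7 and 20.4 CPM in CLPs and at 2.15, 1.67, 3.45 and 3.77 CPM in GMPs. Every HSC library lay above every CLP library, and every CLP library above every GMP library. The log2 fold change was -4.56 (SE 0.32, edgeR adjusted p = 6.15e-18) from HSCs to CLPs and -2.55 (SE 0.32, adjusted p = 5.26e-09) from CLPs to GMPs. Over all 24 libraries of cohort 2, NR-treated ones included, it ranged over 198 to 568, 11.7 to 24.9 and 0.985 to 4.95 CPM in HSCs, CLPs and GMPs. Myc (chr15:61985391-61990374, plus strand) was at 166, 76.6, 115 and 230 CPM in O-WT HSCs, at 171, 153, 85.6 and 210 CPM in CLPs and at 335, 362, 331 and 281 CPM in GMPs. HSC and CLP libraries overlapped throughout, and every GMP library lay above both. Myc was higher in GMPs than in HSCs by 1.15 on the log2 scale (SE 0.25, edgeR adjusted p = 1.54e-04) and than in CLPs by 1.08 (adjusted p = 4.96e-04), whereas CLP minus HSC was 0.08 (SE 0.25, adjusted p = 0.838). Mycl, another Myc family gene and no member of the 35, was named by the rule of smallest p in its list, the Max and Mxd network. It reached 11.6 to 15.97 CPM in O-WT CLPs, 1.40 to 4.53 CPM in O-WT HSCs of cohort 2 and 2.30 to 4.45 CPM in GMPs, without overlap of the CLPs with either. It was higher in CLPs than in HSCs by 2.25 (SE 0.31, adjusted p = 2.95e-08) and lower in GMPs than in CLPs by a log2 fold change of -1.84 (adjusted p = 2.11e-06). In cohort 1, however, the HSC libraries held 7.86 to 14.4 CPM of Mycl, which overlaps the CLP range of cohort 2, and the cohorts were scaled separately. Olfactory and vomeronasal receptor genes averaged 1.10 to 1.95 CPM per kilobase of exon there, against 0.297 to 0.561 in HSCs of cohort 2. Mycl was at 11.5 to 14.4 CPM in O-NR replicates 1 and 2 and O-NR-RC replicates 2 and 3, which had the highest receptor sums. It was at 7.86 to 10.4 CPM in the others, and the part of this background was not tested.

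**Figure D2:**
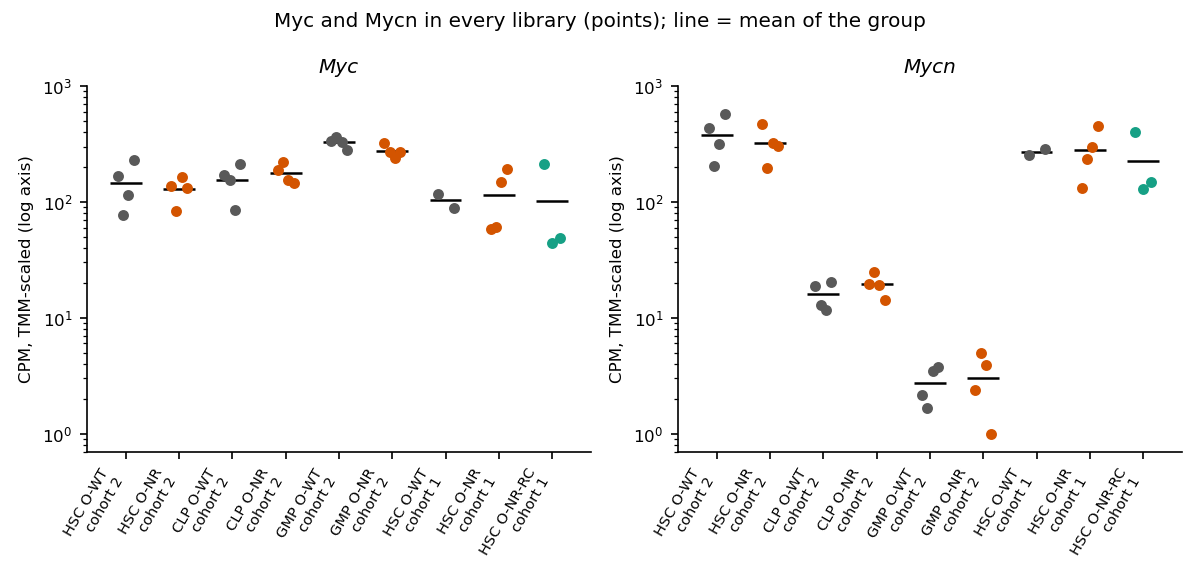
CPM of Myc and Mycn (log axis) in each of the 33 libraries by cell type, cohort and treatment, 1 point per library. Mycn falls from 198 to 568 CPM in HSCs of cohort 2 to 11.7 to 24.9 in CLPs and 0.985 to 4.95 in GMPs, while Myc is highest in GMPs, at 239 to 362 CPM.

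Per kilobase of exon, Mycn ranked second of the 35 genes in HSCs at a mean of 106 CPM per kb (range 60.1 to 173), below Npm1 (163) and above Ncl (89.0) and Myc (50.9). The length joins all annotated exons of a gene, 10188 bases for Ncl and 3295 for Mycn, and can exceed that of its main transcript. The order of genes, Mycn above Ncl included, depends on this length, and other lengths were not tried. The ranges of Npm1, Mycn and Ncl overlapped in HSCs, as did those of Ncl and Myc. In CLPs Mycn ranked 33 of 35 at 5.40 CPM per kb, and the leading genes were Npm1 (192), Ncl (97.8), Myc (61.1) and Nop56 (44.5). In GMPs it ranked last at 0.882 CPM per kb, where the olfactory and vomeronasal receptor genes averaged 0.181 to 0.418. Npm1 (430 CPM per kb), Ncl (214), Myc (111) and Nop56 (73.1) led the order in GMPs, and each of the first 3 lay above the next with no overlap between libraries. Wdr4, Polr1e, Rrp9 and Wdr12 made up the low end in HSCs, at 4.64 to 6.5 CPM per kb, with 11955 joined exon bases for Wdr12.

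The E-box CACGTG, the motif that Myc proteins and Max bind, was searched for from 250 bases before to 50 bases after the RefSeq start site (GRCm38.p6) of each gene. The motif reads the same on both strands. It was present in 6 of the 29 genes with a promoter in the RefSeq table (20.7%), in 10.2% of the 14648 tested genes with one and in 8.09% of all 27025. Myc, Npm1, Bop1, Fbl, Rrp12 and Tcof1 were not in that table. The 6 matches are shown 5′ to 3′ on the strand of the gene, with the motif in capitals, as 250 bases before the start site where the motif lies there and as 30 bases around the motif where it lies after the start site.
Mettl1, chr10:127041950-127041979, plus strand, motif 30 bases after the start site: agctcggctctcCACGTGgactgcgtggca
Pes1, chr11:3963965-3963994, plus strand, motif 2 bases after the start site: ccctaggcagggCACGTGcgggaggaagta
Mybbp1a, chr11:72441347-72441376, plus strand, motif 40 bases after the start site: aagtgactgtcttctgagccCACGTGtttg
Utp20, chr10:88826765-88826794, minus strand, motif 37 bases after the start site: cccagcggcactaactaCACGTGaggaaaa
Nop2, chr6:125131633-125131882, plus strand, motif 60 bases before the start site: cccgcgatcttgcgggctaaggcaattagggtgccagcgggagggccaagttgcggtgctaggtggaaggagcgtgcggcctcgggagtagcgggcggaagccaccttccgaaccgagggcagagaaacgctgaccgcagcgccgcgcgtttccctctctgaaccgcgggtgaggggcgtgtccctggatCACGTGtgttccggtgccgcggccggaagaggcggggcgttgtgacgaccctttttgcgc
Rrn3, chr16:13780449-13780698, plus strand, motifs 215 and 48 bases before the start site: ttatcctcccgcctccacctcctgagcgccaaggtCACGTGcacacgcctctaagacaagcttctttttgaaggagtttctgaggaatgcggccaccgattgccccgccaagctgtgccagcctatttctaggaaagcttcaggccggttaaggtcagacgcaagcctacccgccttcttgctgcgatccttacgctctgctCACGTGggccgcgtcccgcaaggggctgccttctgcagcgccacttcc

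All 6 genes were higher in GMPs than in HSCs of untreated mice, by 0.93 (Mettl1), 1.28 (Pes1), 1.2 (Mybbp1a), 1.24 (Utp20), 1.21 (Nop2) and 0.53 (Rrn3) on the log2 scale. Of the 35 genes 31 were higher, beside 18.6% of all genes tested. The count of 6 thus does not set these genes apart from the rest of the list. Nolc1, with the highest rise of the 35, has no match in its window. A match is a description of the sequence and not evidence of binding.

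Of the 6 RNA polymerase I genes 4 were higher in GMPs than in HSCs, with a median log2 fold change of 0.62, which was lower than the medians of the snoRNP, processing and nucleolar groups (1.21 to 1.25), although the roles were not tested against each other. Polr1a, the largest subunit of the enzyme, was at 121, 69.3, 80.6 and 103 CPM in O-WT HSCs and at 172, 198, 172 and 150 CPM in O-WT GMPs, with no overlap (log2 fold change 0.89, SE 0.21, edgeR adjusted p = 4.01e-04). Polr1b, the second largest subunit, rose by 0.71, Rrn3, which brings the polymerase to the promoter, by 0.53, and Tcof1, a nucleolar phosphoprotein that assists rDNA transcription, by 0.96. Polr1e (0.32, adjusted p = 0.199) and the upstream binding factor Ubtf (0.52, adjusted p = 0.0746) did not pass and their groups overlapped.

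All 9 snoRNP genes were higher in GMPs than in HSCs of untreated mice. In the box C/D class, whose particles methylate ribosomal RNA, the 5 genes had a median of 1.22. Nolc1, a nucleolar and Cajal body chaperone of snoRNPs, had the largest fold of all 35 genes, at 84.5, 39.1, 59.5 and 88.1 CPM in O-WT HSCs and 227, 316, 207 and 276 CPM in GMPs, with a wide gap between the groups (3.78-fold, log2 1.92, SE 0.24, edgeR adjusted p = 9.36e-10). The core protein Nop56 rose by 1.52 and the methyltransferase Fbl by 1.22, while Nop58 and Rrp9 rose by 0.95 and 0.87. In the box H/ACA class, whose particles make pseudouridine and also hold telomerase RNA, the 4 genes had a median of 1.25. Nhp2 was at 34.6, 18.4, 21.3 and 30.6 CPM in HSCs and at 75.2, 90.5, 72.8 and 67.7 CPM in GMPs, again without overlap (log2 1.54, SE 0.23, adjusted p = 8.28e-08). The pseudouridine synthase Dkc1 rose by 1.40, and Gar1 and Nop10 by 1.10 and 0.95. Of the 16 annotated snoRNAs inside 5 of the 35 genes, 10 had no read in any library of cohort 2. These 10 are the snoRNAs that share exon bases with their host gene on the same strand. How reads on shared bases were counted is not stated, so the absence of reads does not show absence of these snoRNAs. Among the rest, 5 averaged 0.329 to 1.26 CPM, and Snord82, in Ncl, averaged 4.00, 5.36 and 3.91 CPM in HSCs, CLPs and GMPs.

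All 11 processing factors were higher in GMPs than in HSCs of untreated mice, and all but Nop14 also in NR-treated mice. Among the 5 of the small subunit (median 1.24), Rrp12, which acts in the export and maturation of the pre-40S particle, went from 29.9, 17.7, 24.3 and 30.2 CPM in O-WT HSCs to 71.3, 82.3, 63.4 and 71.7 CPM in GMPs, with no overlap (log2 1.5, SE 0.20, edgeR adjusted p = 4.67e-09). Heatr1 and Utp20, large scaffold proteins of the early processome, rose by 1.59 and 1.24, and Nop14 by 0.67. Nob1, the nuclease of the last cut of the small subunit RNA, rose the least, by 0.48 (adjusted p = 0.0476), and its groups overlapped. Among the 6 of the large subunit (median 1.21), Bop1 was at 30.9, 16.9, 19.7 and 31.1 CPM in HSCs and at 66.1, 75.4, 67.2 and 56.3 CPM in GMPs, with no overlap (log2 1.43, SE 0.22, adjusted p = 2.29e-07). Its partners in one complex, Pes1 and Wdr12, rose by 1.28 and 1.05, and the RNA methyltransferase Nop2, Nop16 and Rrp1b by 1.21, 1.21 and 1.17.

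The 5 abundant nucleolar proteins were all higher in GMPs, with a median of 1.24. Npm1, nucleophosmin, which helps to form the nucleolus, was at 540, 245, 364 and 518 CPM in O-WT HSCs and at 1049, 1295, 1075 and 1097 CPM in GMPs, with no overlap (2.71-fold, log2 1.44, SE 0.26, edgeR adjusted p = 5.79e-06). Near-identical processed copies of Npm1 make its count uncertain, since how multi-mapping reads were counted is not stated. Nucleolin (Ncl), which binds the ribosomal RNA precursor, averaged 2183 CPM ± 394 in GMPs and 855 CPM ± 338 in HSCs (SD over 4 libraries each). The helicase Ddx21, Mybbp1a and Gnl3 rose by 1.24, 1.2 and 1.11.

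Mettl1 and Wdr4, the catalytic and the supporting subunit of the enzyme that places 7-methylguanosine on tRNAs, differed in their calls, although the difference between them was not tested. Mettl1 (chr10:127041414-127046365, plus strand) was at 20.6, 18.8, 12.8 and 22.2 CPM in O-WT HSCs, at 15.02, 15.7, 13.3 and 16.5 CPM in CLPs and at 32.5, 39.4, 35.8 and 34.7 CPM in GMPs. The GMP libraries lay above all others. It was higher in GMPs than in HSCs by 0.93 (SE 0.20, edgeR adjusted p = 9.64e-05) in untreated mice and did not pass in NR-treated mice. Wdr4 (chr17:31494322-31519980, minus strand) was at 32.5, 15.4, 22.4 and 30.7 CPM in HSCs, at 16.8, 13.0, 11.1 and 20.3 CPM in CLPs and at 34.3, 36.2, 40.8 and 28.9 CPM in GMPs. Its HSC and GMP libraries overlapped (0.47, adjusted p = 0.0978), and it was lower in CLPs than in HSCs by a log2 fold change of -0.71 (SE 0.24, adjusted p = 0.0187), also with overlap, and without the CLP O-WT library of replicate 3 this did not pass (-0.59, adjusted p = 0.0794). An antisense gene covers 10.8% of the exon bases of Wdr4, and Eef1akmt3 on the opposite strand covers 3.44% of those of Mettl1. Whether the counting used strand is not stated, so reads of these partners cannot be told apart.

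CLPs did not show the rise seen in GMPs. In untreated mice 1 of the 35 genes was higher in CLPs than in HSCs and 2 were lower, where 9.38% and 16.7% of all genes were, and the median was 0.05 over the 35 genes and 0.11 over all genes. The gene higher was Nop56, at 191, 179, 87.3 and 200 CPM in CLPs and 123, 76.8, 81.9 and 138 CPM in HSCs, which overlapped through the CLP library of replicate 3 (0.65, SE 0.23, edgeR adjusted p = 0.031). The genes lower were Mycn and Wdr4. In NR-treated mice 2 were higher, Nop56 (0.69, adjusted p = 0.0187) and Nop10 (0.81, adjusted p = 0.00148), and Mycn alone was lower (-4.04), where 12.5% and 17.7% of all genes were higher and lower. These counts depend on the scaling between libraries: with total counts alone 12 genes were higher in untreated and 17 in NR-treated CLPs, with upper quartile scaling 14 and 21, and the median of all genes moved with them, from 0.11 to 0.29 and 0.35 in untreated mice. The share of all genes that were higher under these scalings was not counted. Without the CLP O-WT library of replicate 3, 4 genes were higher and 1 lower and the median of the 35 was 0.24, and without the HSC O-WT library of replicate 2, 0 were higher and 5 lower and the median was -0.13.

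Proliferation genes were measured beside them, as a list of 25 genes of DNA replication and mitosis. In untreated mice 25 of the 25 were higher in CLPs than in HSCs (median 2.77) and 25 of the 25 in GMPs (median 3.10), and 13 were higher in GMPs than in CLPs (median 0.46). The mean log2 CPM of the list was 3.56 to 4.39 in the HSC libraries of cohort 2, 5.92 to 7.16 in CLPs and 6.94 to 7.28 in GMPs, with HSCs apart from both. For the 35 genes it was 5.47 to 6.31 in HSCs, 5.26 to 6.49 in CLPs and 6.76 to 7.04 in GMPs, with GMPs apart from both. Cell cycle genes thus separated HSCs from the progenitors, and the ribosome biogenesis genes separated GMPs from HSCs and CLPs. Whether the share of dividing cells plays a part in either difference was not tested.

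**Figure D3:**
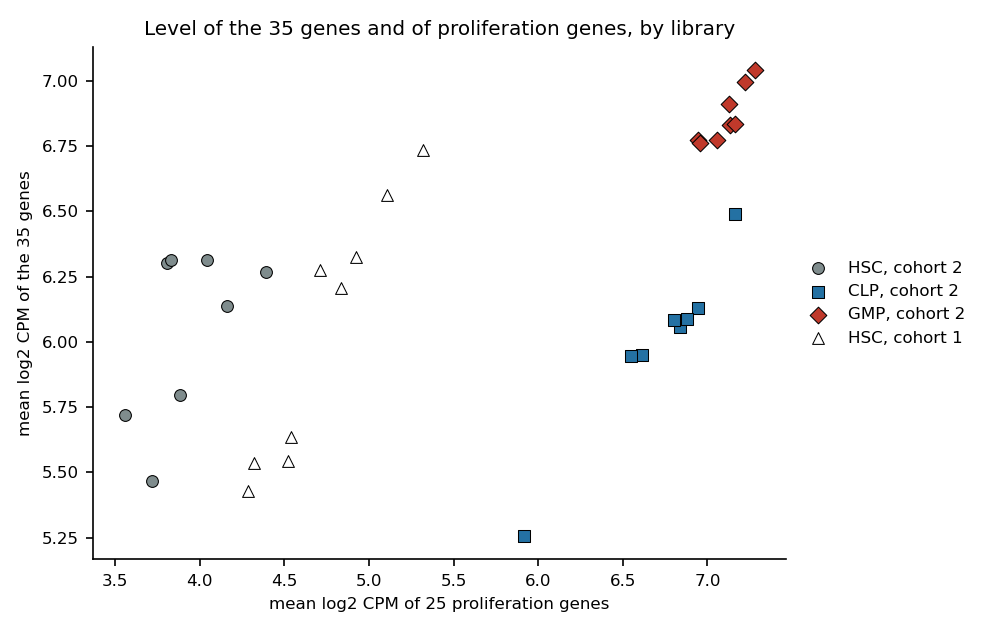
Mean log2 CPM of the 35 genes against mean log2 CPM of 25 proliferation genes in each of the 33 libraries, by cell type and cohort. CLPs reach 5.92 to 7.16 on the proliferation axis at ribosome biogenesis levels of 5.26 to 6.49, which overlap those of HSCs (5.47 to 6.31 in cohort 2, 5.43 to 6.74 in cohort 1), and GMPs lie at 6.76 to 7.04, just above the highest HSC library of cohort 1.

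Other genes of the pathway, in lists that leave out the 35 except for Nop10, were counted in the same way. From HSCs to GMPs of untreated mice, 37 of 46 other small subunit factors were higher (median 0.80), 45 of 54 other large subunit factors (0.77) and 9 of 10 genes of snoRNP assembly (0.86), and 0 were lower in each list. Pno1, a small subunit assembly factor, rose by 1.91 and Rrs1, a large subunit assembly factor, by 1.79. Of the other RNA polymerase I and III genes 10 of 25 were higher (median 0.28), among them Taf1d at 353 and 154 CPM and Cd3eap at 40.9 and 19.8 CPM in GMPs and HSCs. Other known Myc targets outside the nucleolus were higher in 29 of 29 (median 1.55), led by the amino acid transporter Slc7a5 (113 against 14.9 CPM, log2 2.93) and the transferrin receptor Tfrc (2.62), which red cell precursors also use. The Max and Mxd network, a mixed list of Max, genes related to it, Mycl and regulators of Myc, was higher in 4 of 17 (median 0.26), a share near the 18.6% of all genes. Other tRNA methyltransferases were higher in 9 of 22 (0.39). In CLPs against HSCs, 1 of 46 small subunit factors was higher and 4 were lower, and 0 of 54 large subunit factors were higher and 9 lower, including Nop53 (-1.25), which is the share of all genes that were lower (16.7%), while 11 of the 29 other Myc targets were higher and 1 lower (median 0.49). Slc7a5 (1.66) and Tfrc (3.17) were among those higher.

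NR treatment was then examined within each cell type of cohort 2, with transcripts counted at an unadjusted p below 0.01, the cutoff of the study's heatmaps. In HSCs 1 of the 35 genes passed, against 0.777% of the 17364 genes tested, and 0 of all genes had an adjusted p below 0.05. The gene was Mettl1, at 35.7, 23.2, 31.2 and 30.5 CPM in O-NR HSCs against 20.6, 18.8, 12.8 and 22.2 CPM in O-WT. All 4 O-NR libraries lay above all 4 O-WT libraries, the lowest of them (23.2 CPM) close to the highest of O-WT (22.2 CPM). The log2 fold change was 0.61 (SE 0.15, unadjusted p = 6.90e-04, edgeR adjusted p = 0.793). Wdr4, its partner, was at 27.9, 19.2, 29.9 and 23.9 CPM in O-NR HSCs and 32.5, 15.4, 22.4 and 30.7 CPM in O-WT, which overlapped fully (-0.07, unadjusted p = 0.637, edgeR adjusted p = 0.995). The next smallest p-values belonged to Gar1 (0.32, unadjusted p = 0.0264) and Heatr1 (0.25, unadjusted p = 0.0397), each with an edgeR adjusted p = 0.995. A positive difference was seen in 25 of the 35 genes, and in 48.8% of all genes, with a median of 0.06. Without the O-WT library of replicate 2 these were 16 of the 35, 51.9% and -0.018. Myc and Mycn had differences of -0.25 and -0.30 (unadjusted p = 0.223 and 0.165, edgeR adjusted p = 0.995).

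In CLPs 1 of the 35 genes passed under NR, against 0.412% of the 19909 genes tested. It was the box H/ACA protein Nop10 (chr2:112261926-112263269, plus strand), at 26.4, 39.3, 39.3 and 40.9 CPM in O-NR and 25.7, 21.3, 13.3 and 32.8 CPM in O-WT CLPs. The groups overlapped through the O-NR library of replicate 1. The log2 fold change was 0.58 (SE 0.21, unadjusted p = 0.00778, edgeR adjusted p = 1), and 0.44 without the O-WT library of replicate 3, which then did not pass. Mettl1 was at 17.4, 23.2, 31.2 and 18.5 CPM in O-NR CLPs and at 15.02, 15.7, 13.3 and 16.5 CPM in O-WT. The groups did not overlap, as in HSCs, but the difference did not pass (0.50, SE 0.22, unadjusted p = 0.0294, edgeR adjusted p = 1), and neither did Rrn3 (0.41, unadjusted p = 0.0341, edgeR adjusted p = 1). Without the O-WT library of replicate 3 these were 0.49 and 0.31. Differences were positive for 32 of the 35 genes, against 49.3% of all genes, with a median of 0.20. Without the O-WT library of replicate 3, 26 of the 35 were positive, against 52.6% of all genes, with a median of 0.087, and the median was 0.092 with scaling by total counts alone.

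In GMPs 34 of the 35 genes could be tested, since Mycn was above 3 CPM of the total counts, before scaling, in 3 of the 8 libraries where the filter asks for 4, and 1 passed, against 0.986% of the 13486 genes tested. It was Myc, at 322, 271, 239 and 268 CPM in O-NR and 335, 362, 331 and 281 CPM in O-WT GMPs. The O-NR library of replicate 1 reached into the O-WT range. Myc fell by 0.26 on the log2 scale (SE 0.08, unadjusted p = 0.00716, edgeR adjusted p = 0.905), a fold of 1.19. Nhp2 (0.18, unadjusted p = 0.0729) and Mettl1 (0.15, unadjusted p = 0.0978) followed and did not pass, with an edgeR adjusted p = 0.997 for each. Positive differences were seen in 20 of the 34 genes and in 49.4% of all genes.

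Whether the NR effect differed between cell types was tested in one model of the 24 libraries. Of the 35 genes 0 passed p below 0.01 in HSC minus CLP, HSC minus GMP or CLP minus GMP, where 0.403%, 0.146% and 0.403% of all genes did. At an unadjusted p below 0.05 there were 1, 0 and 0 of the 35, against 2.3%, 1.41% and 2.9%. The smallest p-values were those of Nop10 in HSC minus CLP (-0.62, SE 0.29, unadjusted p = 0.0393), Mettl1 in HSC minus GMP (0.54, SE 0.28, unadjusted p = 0.058) and Nop10 in CLP minus GMP (0.46, SE 0.29, unadjusted p = 0.12), with edgeR adjusted p = 1, 1 and 0.992. Without the CLP O-WT library of replicate 3 the Nop10 values were -0.43 and 0.27. Mettl1 differed between HSCs and CLPs by 0.12 (SE 0.28, unadjusted p = 0.669, edgeR adjusted p = 1), so its passing the threshold in HSCs alone does not show a difference between these cell types. Of the other pathway genes 3 of 200 passed p below 0.01 under NR in HSCs (1.5%), 1 of 202 in CLPs (0.495%) and 3 of 202 in GMPs (1.49%), beside 0.777%, 0.412% and 0.986% of all genes. Slc7a5 passed in HSCs (0.57, unadjusted p = 7.43e-04) and in CLPs (0.62, unadjusted p = 0.00369), with edgeR adjusted p = 0.793 and 1. It was at 19.5 to 26.9 CPM in O-NR and 11.6 to 18.2 CPM in O-WT HSCs, and at 63.2 to 88.3 and 26.1 to 57.7 CPM in CLPs, without overlap in either. The lowest of these was the CLP O-WT library of replicate 3, without which Slc7a5 had 0.46 (unadjusted p = 0.0069). In the HSCs of cohort 1 it was at 17.2 to 33.7 CPM in O-NR and at 25.4 and 30.8 CPM in O-WT (-0.21, unadjusted p = 0.631), and over both cohorts it did not pass (0.27, unadjusted p = 0.096, edgeR adjusted p = 1). The others were Slc16a1, a lactate transporter (0.43), and the tRNA methyltransferase Trmt6 (0.42) in HSCs, both with an edgeR adjusted p = 0.995 and not past the threshold over both cohorts (unadjusted p = 0.13 and 0.152). In GMPs they were the RNA polymerase I factor Taf1b (0.35), the small subunit factor Nol11 (0.22) and Mga, a Max partner (-0.23), with edgeR adjusted p = 0.905, 0.93 and 0.905.

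**Figure D4:**
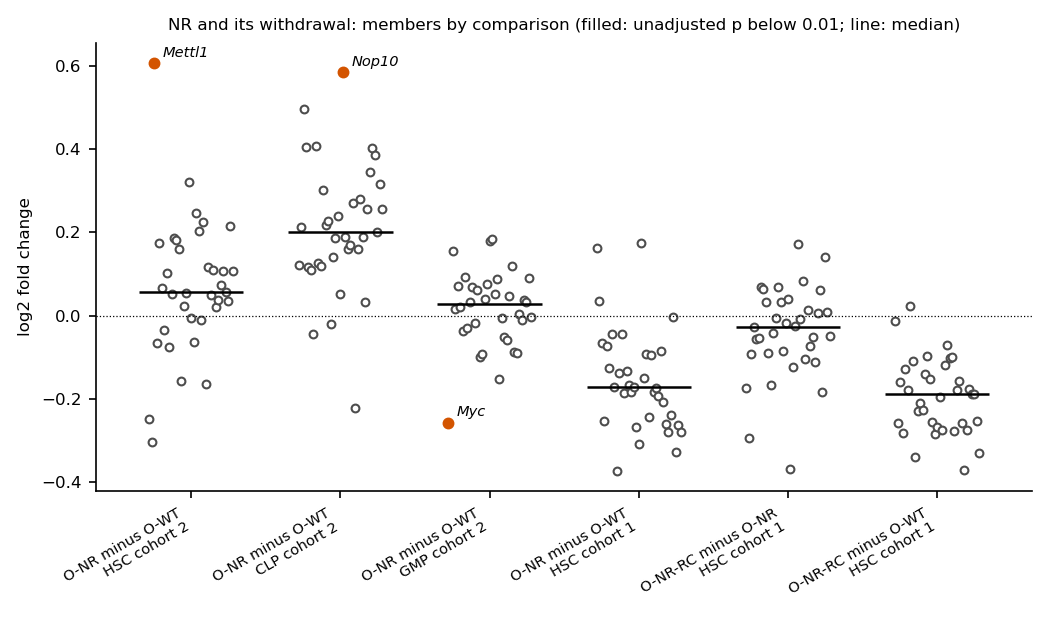
Log2 fold changes of each of the 35 genes (34 in GMPs) in the NR and withdrawal comparisons of cohorts 1 and 2, with a line at the median and filled points at unadjusted p below 0.01. The 3 filled points are Mettl1 in HSCs (0.61) and Nop10 in CLPs (0.58) above 0 and Myc in GMPs (-0.26) below it, all in cohort 2, and the cohort 1 comparisons hold none.

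Cohort 1 gave no member past the threshold. Of the 35 genes 0 passed at an unadjusted p below 0.01 in O-NR minus O-WT, O-NR-RC minus O-NR and O-NR-RC minus O-WT, where 0.048%, 0.036% and 0.078% of the 33350 genes tested did, and 0 passed at p below 0.05, where 0.546%, 0.291% and 0.795% did. Mettl1 was at 20.6, 18.7, 31.4 and 34.7 CPM in O-NR, at 27.6 and 27.6 CPM in O-WT and at 34.3, 20.04 and 19.6 CPM in O-NR-RC HSCs. Its O-WT libraries lay inside the O-NR range (-0.07, SE 0.33, unadjusted p = 0.844, edgeR adjusted p = 1), and withdrawal gave -0.09 (unadjusted p = 0.757, adjusted p = 1). The smallest p-values were those of Gar1 for NR (-0.27, unadjusted p = 0.462), Nop10 for withdrawal (-0.37, unadjusted p = 0.205) and Nop16 for O-NR-RC minus O-WT (-0.37, unadjusted p = 0.406), with an edgeR adjusted p = 1 for each. Without the O-NR-RC library of replicate 1, Nop10 had -0.67 (unadjusted p = 0.0233) and Nop16 -0.94 (unadjusted p = 0.0137), and 0 of the 35 genes passed p below 0.01 in the edgeR fits. NR minus O-WT was positive for 3 of the 35 genes, with a median of -0.17, against 49.1% of all genes. With 1 O-NR library left out this was 1 to 11 of the 35 and a median of -0.36 (without replicate 4) to -0.041 (without replicate 1). The libraries of this cohort split on the 35 genes across the groups: O-NR replicates 1 and 2 and O-NR-RC replicates 2 and 3 had mean log2 CPM of 5.43 to 5.64 with receptor sums of 11096 to 11687 CPM, and the other 5 had 6.21 to 6.74 with 6622 to 9374 CPM. The part of this split in the values of cohort 1 was not tested. With the 14 untreated and treated HSC libraries of both cohorts and a cohort term, 0 of the 35 genes passed, against 0.103% of all genes, and Mettl1 had 0.35 (SE 0.15, unadjusted p = 0.0279, edgeR adjusted p = 1). The NR effect on Mettl1 was 0.66 larger in cohort 2 than in cohort 1 (SE 0.28, unadjusted p = 0.0283, edgeR adjusted p = 0.979), where 0 of the 35 genes and 0.137% of all genes passed p below 0.01.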

How the data were processed

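The deposited files hold whole-number counts per gene symbol, not normalized. Per the labels and the study's methods, the authors built libraries with a SMARTer total RNA kit, trimmed reads with cutadapt, used STAR against mm10 and its Gencode M22 annotation, and counted with featureCounts. Neither their strand setting nor how multi-mapping reads and reads on bases shared between genes were counted is stated. From these counts, genes were kept if they passed 3 CPM of the total counts, before scaling, in as many libraries as the smallest group holds or more. Libraries were scaled by TMM and compared with the quasi-likelihood test of edgeR 4.0.16 in R 4.3.3, with Benjamini-Hochberg adjustment over all genes tested. CPM in the text are counts relative to the TMM-scaled library size, ± SD. Cell types and differences of the NR effect were fitted over the 24 libraries of cohort 2, NR within each cell type, cohort 1 over its 9 libraries. Cell types were called at an adjusted p below 0.05, NR at an unadjusted p below 0.01. DESeq2 1.42.0 was an alternative. Leaving out single libraries for the counts of positive differences and for Slc7a5 was chosen after seeing the data. The test was checked on simulated counts. Positions and exon lengths are those of Gencode M21 (GRCm38).

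The members and lists were chosen with earlier results of these data known. Libraries are given in full for Myc, Mycn, Mettl1, Wdr4, the gene of each other role with the smallest p from HSCs to GMPs, and genes passing under NR. Where fewer than 3 passed, the 3 with the smallest p are named. Of the other lists up to 2 genes of the smallest p are named. Sort markers were summed per list. No pair of libraries within a group agreed within sampling noise (46 pairs, lowest chi-square per degree of freedom 1.96). In cohort 1 O-NR replicates 1 and 2 had 1.96 and replicates 3 and 4 had 3.84, against 53.1 to 71.7 across these pairs. O-NR-RC replicates 2 and 3 had 4.02, against 102 and 73.2 to replicate 1. The fits of cohort 1 and of both cohorts counted each library as separate, and whether they are was not tested. Same-numbered libraries of different cell types and one treatment carry one animal number in the deposited names. Their deviations from the group means correlated by -0.476 to 0.367, and a fit with the animal as replicate block moved no count of calls by over 1.5 times. The counts are of reads and not of molecules, so precision is given as the spread between libraries and not from counting error.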

Additional observations from a re-analysis of the deposited data

Results flagged for a closer look

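Of 126 gene and group combinations of 4 libraries that were looked at, 7 had 1 library far from the other 3, measured as its gap over the range of the group. Chance alone gives such a gap in about 5 of every 100 groups. In CLPs, the O-WT library of replicate 3 was low for Bop1 (13.6 CPM, others 27.7 to 29.7) and for Fbl (38.4 CPM, others 74.3 to 79.9). The O-NR library of replicate 2 was high for Bop1 (43.3 CPM, others 22.9 to 25.9), Gar1 (43.6 CPM, others 29.8 to 31.4) and Nop16 (34.9 CPM, others 21.6 to 23.8). The O-NR library of replicate 1 was low for Nop10 (26.4 CPM, others 39.3 to 40.9). In GMPs, the O-NR library of replicate 1 was high for Wdr4 (44.9 CPM, others 31.7 to 32.8). In 6 of the 7 cases the library was a CLP library. Scaling factors were 0.924 to 1.67 in CLPs, 0.819 to 1.39 in HSCs and 0.789 to 0.947 in GMPs of cohort 2. They were 0.671 to 1.32 in the HSCs of cohort 1, where no library was flagged. In that cohort only the O-NR group had the 4 libraries that the rule needs. Its libraries split into pairs on the mean of the 35 genes, which a rule for 1 library apart does not flag. A link between these flags and scaling was not tested.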

How the results depend on the processing

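The rise of these genes in GMPs held under every alternative run: 29 to 34 of them were higher than in untreated HSCs (28 to 34 with 1 library left out), 26 to 33 in NR-treated mice, 30 to 34 against untreated CLPs and 25 to 32 against NR-treated CLPs (24 to 32 with 1 library left out), and Mycn was lower in each. CLP minus HSC did not hold its counts, and the cause was not tested. The share of all genes called was counted in the main runs and not under these alternatives. For untreated mice 1 gene was higher as reported, 0 with DESeq2's size factors, without a filter or with filterByExpr, 2 with counts thinned to the smallest library or with only the 12 libraries of that treatment, 12 with total counts, 14 with the upper quartile (1 lower) and 0 to 4 with 1 library left out (1 to 5 lower). For NR-treated mice 2 were higher as reported, 1 without a filter or with filterByExpr, 13 with the 12 libraries alone, 17 with total counts, 21 with the upper quartile and 1 to 3 with 1 library left out (1 to 2 lower). Reversed CLP minus HSC values were, with filterByExpr, Myc -0.10, Polr1a -0.15, Bop1 -0.17 and Npm1 -0.13, without a filter Bop1 -0.018, and with 1 library left out Myc -0.156 to 0.374, Polr1a -0.0916 to 0.178, Bop1 -0.148 to 0.217 and Npm1 -0.158 to 0.245. Mettl1 in HSCs of cohort 2 passed under every alternative run (0.56 to 0.69, p 1.25e-04 to 0.00276, and 0.48 to 0.71 with 1 library left out). Nop10 in CLPs did not: 0 genes passed with total counts, without a filter, with the DESeq2 Wald test or with a fold above 1.5 added, 2 passed in one model of 24 libraries, and 0 or 1 with 1 library left out (0 without O-WT 1, 2 or 3 or O-NR 2 or 4). Myc in GMPs did not either: 0 passed in one model of 24 libraries, without a filter, with filterByExpr or with a fold above 1.5, and 0 or 1 with 1 library left out (0 without O-WT 1, 2 or 3 or O-NR 2, 3 or 4). The NR difference between HSCs and CLPs had 0 to 1 and both cohorts together 0 to 1 (1 without O-NR replicate 1 or 2 of cohort 1). O-WT and O-NR libraries share only a replicate number (correlation of deviations 0.136 in HSCs, 0.0198 in CLPs and 0.0439 in GMPs on average). With the number as a replicate block, the difference of the NR effect between cohorts had 21 of these genes past p below 0.01 in place of 0. How many of all genes passed in that fit was not counted, so the 21 cannot be read as particular to these genes. Fbl after withdrawal reversed to 0.027, and no other count of calls moved by over 1.5 times. With 1 library left out, withdrawal gave -0.80 to 0.10 for Fbl and -0.997 to 0.038 for Mycn.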
